A study of Mus musculus with 4 samples.

Results

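Lemd1, Ttn, Epb4.1l4a, Hmgn5, Pde4c, Pxt1 and Fgd5 are 7 protein-coding genes with large mutant over control ratios in neonatal mouse spermatogonia whose retinoic acid signalling was impaired. They were taken by symbol from a table of 43998 entries, as coding genes with the largest ratios of mutant to control RPKM and at least 5 RPKM in the mutant. RPKM is the number of reads scaled to transcript length and to sequencing depth. Each symbol matched 1 entry, all 7 entries held a single symbol, and all 7 passed a filter of 1 RPKM or more in either genotype. Because these values chose the genes, the levels and ratios below are a description and carry no test.

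The series holds 4 RNA-seq libraries of THY1+ spermatogonia from the testes of C57BL/6 mice at postnatal day 4, 2 labelled control and 2 labelled germ cell RA signaling mutant. THY1 (CD90.2) is a surface protein by which undifferentiated spermatogonia can be enriched with antibody-coated magnetic beads. The labels name neither the modified gene nor what drives the modification in germ cells, and they do not say whether libraries came from separate or pooled animals. The deposited table gives 1 combined RPKM value per genotype, made from both of its libraries, so replicate spread is unknown for every difference below, and no SD or p-value is given.

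Retinoic acid, made from vitamin A, binds nuclear receptors that switch on target genes and start the differentiation of spermatogonia. Stra8, a retinoic acid target, was at 45.2 RPKM in control and 8.60 in mutant, and Kit, a receptor of differentiating spermatogonia, at 27.3 and 9.65 RPKM. The 7 genes belong to no single pathway. Hmgn5 and Lemd1 encode proteins of the nucleus, Pde4c and Fgd5 act in cAMP and CDC42 signalling, Epb4.1l4a and Ttn belong to families of cytoskeletal proteins, and Pxt1 is a testis-specific gene linked to germ cell death.

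All 13 germ cell markers were present, among them the RNA helicase gene Ddx4 at 88.6 RPKM in control and 114 in mutant and Dazl, which encodes a germ cell RNA-binding protein, at 274 and 353 RPKM. Their summed level was 859 RPKM in control and 1210 in mutant. The 13 did not all differ in 1 direction: Gfra1, the GDNF receptor gene of undifferentiated spermatogonia, was the only one lower in mutant, at 35.9 and 14.2 RPKM (-1.28), and Zbtb16, a transcription factor gene of the same cells, was past 2-fold higher, at 24.4 and 53.7 RPKM (1.11). Markers of some other testicular cell types were present too and had lower mutant sums. These were 4500 and 1620 RPKM for 11 macrophage genes, 458 and 155 RPKM for 4 Leydig cell genes, and 545 and 264 RPKM for 10 Sertoli cell genes. All 25 of these genes were lower in the mutant, 17 of them by 2-fold or more, where 55.7% of all protein-coding genes were lower by any amount and 4.01% by 2-fold or more. The 11 endothelial genes measured did not share this shift. They summed to 37.4 RPKM in control and 37.4 in mutant, with 6 above 0, 5 below and none past 2-fold. What part these marker differences have in the differences of the 7 genes was not tested. In such bulk RNA, more cells of a type and more RNA per cell cannot be told apart.

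The 7 genes were low in control and near the middle of the range in mutant. Their control values ran from 1.12 to 7.25 RPKM with a median of 2.49 RPKM, against 13.8 RPKM for the median protein-coding gene. Their mutant values ran from 7.01 to 32.0 RPKM with a median of 12.2 RPKM, against 12.7 RPKM for the median protein-coding gene. Among 12521 protein-coding genes with 1 RPKM or more in either genotype, the 7 lay between percentiles 4.36 and 33.6 in control and between 34.9 and 75.9 in mutant. The lowest mutant value of the group, Fgd5 at 7.01 RPKM, was below the highest control value, Ttn at 7.25 RPKM, so the ranges of the 2 genotypes overlapped slightly across genes.

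**Figure D1:**
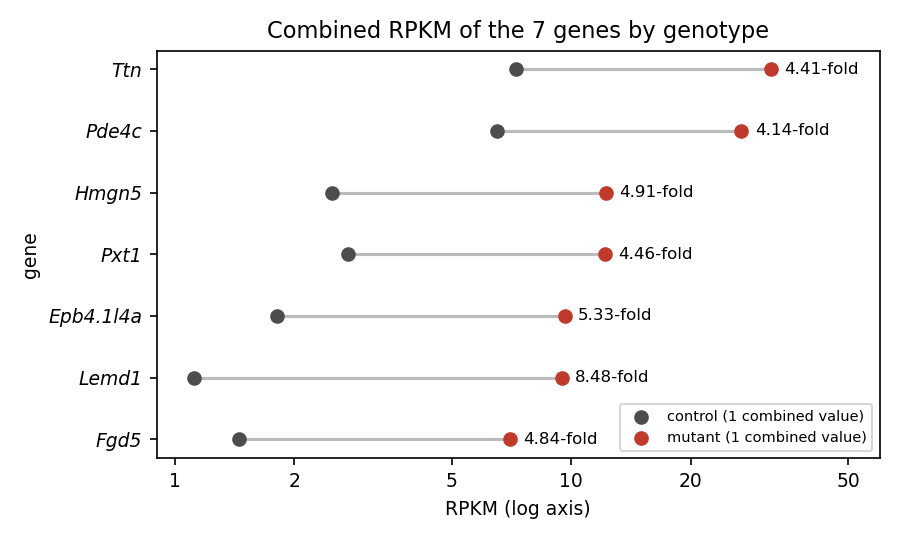
RPKM on a log axis for each of the 7 genes, with 1 combined control value (grey) and 1 combined mutant value (red) joined by a line and the mutant over control ratio beside it. Ttn and Pde4c have the highest values in both genotypes, while Lemd1 has the lowest control value, 1.12 RPKM, and the largest ratio, 8.48-fold.

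Differences below are log2((mutant RPKM + 1)/(control RPKM + 1)). On this scale the difference of a low gene comes out smaller than its plain ratio, and 2-fold refers to this scale. All 7 genes were past 2-fold, from 1.71 for Fgd5 to 2.31 for Lemd1, with a median of 1.92. Among all protein-coding genes measured, 156 of 12521 (1.25%) were at least 2-fold higher in the mutant and the median difference was -0.065. Since the genes were chosen on this contrast, nothing is read from their count against that share. They were not the only genes in this range. Among 9032 protein-coding genes with 5 RPKM or more in mutant, the 7 held the ranks 1, 2, 4, 5, 7, 8 and 12 by ratio.

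Another 5 genes stood between them. Neurog3, which encodes a transcription factor found in progenitor spermatogonia, had 1.40 RPKM in control and 6.94 in mutant. Spocd1, which acts in piRNA-directed DNA methylation of fetal male germ cells, was at 1.57 and 7.24 RPKM, and Meig1, which is needed for sperm formation, at 1.18 and 5.04 RPKM. The uncharacterised gene A230065H16Rik was at 3.31 and 14.0 RPKM, and Fbxo32, a ubiquitin ligase gene best known from muscle wasting, at 4.52 and 18.8 RPKM. Among coding genes with 5 RPKM or more in mutant, Fbxo32 (difference 1.84), A230065H16Rik (1.80) and Neurog3 (1.72) were those outside the 7 whose differences lay closest to the group's median, a likeness measured on 1 difference between 2 combined values.

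The edge of the selection was narrow. Pde4c had the smallest ratio of the 7, 4.14, and the next genes below it were Vat1l at 4.13, Magea3 at 4.08 and Nxf3 at 3.97. On the level criterion, 4 genes lay between 4 and 5 RPKM in mutant and were left out although their ratios were 4.14 or more or their control value was 0. They were Gm14870 at 4.95 RPKM, listed at 0 in control, Tmem130 at 4.77 RPKM, Tmem63c at 4.71 RPKM and Dnmt3l, a cofactor of DNA methylation in fetal germ cells, at 4.19 RPKM.

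**Figure D2:**
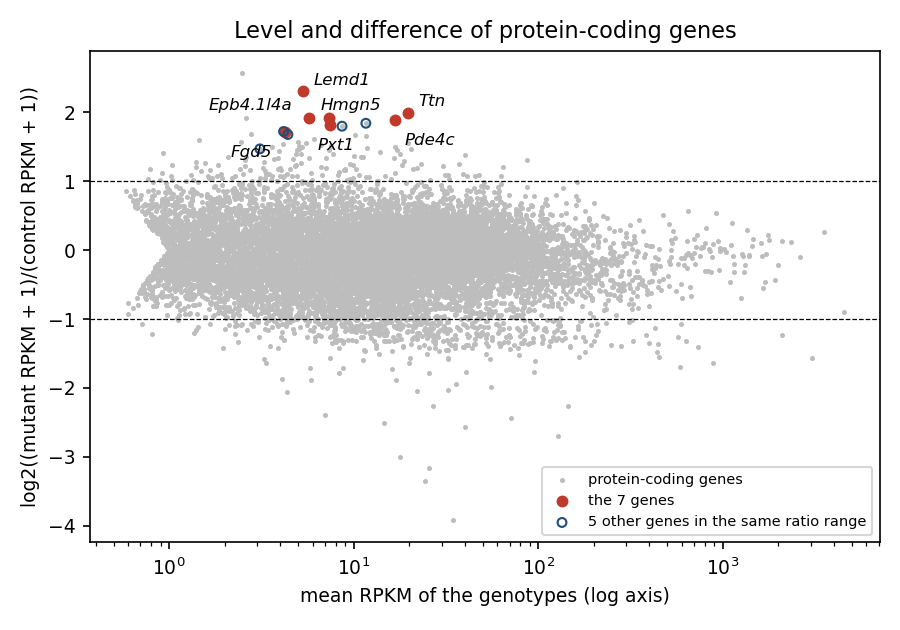
Difference between genotypes (log2 of RPKM + 1) against the mean RPKM of the genotypes (log axis) for 12521 protein-coding genes, with the 7 genes in red, the 5 other genes of the same ratio range as open circles, and dashed lines at 2-fold. The 7 genes sit between 1.71 and 2.31 at the upper edge of the cloud.

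The promoters of the group were compared in the RefSeq sequence set (build GRCm38.p6), which covers 250 bases before to 50 bases after each start. Promoters were found for 6 of the 7 genes, with 2 starts for Lemd1. The 3 stretches below show the spread of the group: the Pxt1 promoter is the only one of the 6 genes with an E-box or the AGGTCA letters, and Fgd5 and Pde4c have the most and the fewest CpG dinucleotides for their base content. Each runs 5′ to 3′ on the gene's strand and ends at the base before the RefSeq start. These starts differ from others annotated for the genes. The Pde4c stretch lies inside the listed span, which begins at 70723720, and the Fgd5 stretch runs past the listed start, 91978878. The Pxt1 stretch borders the listed span but lies inside the GENCODE M21 annotation of the gene, which extends to 28943840. Capitals mark the overlapping E-box and AGGTCA match in Pxt1 and each CpG in Fgd5 and Pde4c.
Pxt1, chr17:28942263-28942362, minus strand: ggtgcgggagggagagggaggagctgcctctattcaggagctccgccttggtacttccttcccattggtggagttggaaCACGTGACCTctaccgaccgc
Fgd5, chr6:91978715-91978964, plus strand: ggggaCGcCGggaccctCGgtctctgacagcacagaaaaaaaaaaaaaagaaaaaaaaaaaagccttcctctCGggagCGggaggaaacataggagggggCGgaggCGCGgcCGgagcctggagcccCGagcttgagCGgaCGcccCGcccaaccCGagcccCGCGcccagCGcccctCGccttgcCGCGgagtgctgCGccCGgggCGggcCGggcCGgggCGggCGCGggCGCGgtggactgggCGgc
Pde4c, chr8:70723814-70724063, plus strand: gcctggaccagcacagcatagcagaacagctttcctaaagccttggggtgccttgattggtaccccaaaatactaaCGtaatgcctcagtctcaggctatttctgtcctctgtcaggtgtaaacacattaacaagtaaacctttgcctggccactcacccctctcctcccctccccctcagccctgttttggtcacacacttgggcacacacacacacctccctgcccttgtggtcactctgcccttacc

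Base composition differed widely within the group. The Fgd5 stretch holds 31 CpG dinucleotides in 250 bases and the Pde4c stretch 1. Over the 300 bases the ratio of observed to expected CpG was 0.973 for Fgd5, 0.956 for Hmgn5, 0.773 and 0.290 for the 2 starts of Lemd1, 0.446 for Pxt1, 0.400 for Ttn and 0.142 for Pde4c. The median of 32851 promoters was 0.384, with quartiles of 0.176 and 0.750. CpG-rich and CpG-poor promoters were thus both present.

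The letters searched on both strands were AGGTCA, which retinoid receptors and other nuclear receptors bind, the DR5 retinoic acid response element (AGGTCA repeated in the same direction with 5 bases between), CACGTG, an E-box, and GGGCGG, a GC box. AGGTCA occurred in 16.3% of all promoters, CACGTG in 7.15%, GGGCGG in 35.7% and the DR5 element in 3 of 32851. Pxt1 held CACGTG from position -21 and AGGTCA on the opposite strand from position -17, counted from the start, and these matches share letters. This overlapping pair, in either direction, occurred in 0.195% of promoters. The pair was defined after it was seen in Pxt1, so its low share is not read as a result. Fgd5 held 5 matches to GGGCGG. Besides Pxt1 and Fgd5, no gene of the group with a promoter in the set held any of the 4 patterns in this window. Epb4.1l4a had no promoter in the set and was not searched. These matches are descriptions of letters and do not show binding. Only exact letters within this window were searched, so a lack of matches does not show a lack of binding sites. With the DR5 element in 3 of 32851 promoters, its absence from these genes tells nothing about them.

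Hmgn5 encodes a nucleosome-binding protein of the HMGN family that loosens chromatin and counters linker histone H1. The table lists it on chromosome X from 109004534 to 109013404, where GENCODE M21 annotates 1 transcript of 1934 nt with 6 exons. It was at 2.49 RPKM in control and 12.2 in mutant, a 4.91-fold ratio and a difference of 1.92. Its relatives did not share the size of this difference. Hmgn1 was at 350 and 275 RPKM, Hmgn2 at 341 and 277 RPKM and Hmgn3 at 20.96 and 22.77 RPKM. Hmgn5 was the lowest of the 4 in both genotypes and made up 0.349% of their summed RPKM in control and 2.08% in mutant.

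Lemd1 encodes a protein with a LEM domain, a fold that in related inner nuclear membrane proteins binds the chromatin factor BAF. It is known as a cancer/testis antigen, a gene expressed in testis and in tumours. It is listed on chromosome 1 from 132191431 to 132259227. Lemd1 was at 1.12 RPKM in control and 9.48 in mutant, an 8.48-fold ratio, the largest among the 9032 coding genes with 5 RPKM or more in mutant. The other LEM domain genes measured on their own lay within 0.27 of 0 on the log2 scale. Tmpo was at 71.1 and 71.0 RPKM, Ankle2 at 60.9 and 66.2 RPKM, Lemd3 at 14.4 and 17.6 RPKM, Lemd2 at 12.2 and 10.5 RPKM and Ankle1 at 3.18 and 2.57 RPKM. Emd was not measured on its own, because its value is pooled with an overlapping gene. The share of Lemd1 in the summed RPKM of the 6 LEM domain genes was 0.686% in control and 5.34% in mutant.

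Pde4c encodes a cAMP-specific phosphodiesterase of the PDE4 family, enzymes that end cAMP signals by hydrolysing the second messenger. It is listed on chromosome 8 from 70723720 to 70751186 and was at 6.49 RPKM in control and 26.9 in mutant, a 4.14-fold ratio. Its 3 relatives all had slightly lower mutant values. Pde4b was at 7.07 and 5.10 RPKM, Pde4d at 3.26 and 2.88 RPKM and Pde4a at 2.18 and 1.37 RPKM. Pde4c therefore made up 34.2% of the summed PDE4 RPKM in control, behind Pde4b, and 74.2% in mutant. The family sum was 19.0 RPKM in control and 36.2 in mutant, while the sum of the other 3 members was 12.5 and 9.35 RPKM.

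Among the 12 other cAMP phosphodiesterases that passed the filter, Pde1c, which is activated by calcium and calmodulin, was 2-fold higher, at 2.38 and 6.29 RPKM (difference 1.11), and none was 2-fold lower. The most abundant, Pde7a, was at 45.7 and 57.5 RPKM and Pde3b was at 20.1 and 20.4 RPKM. Their median difference was -0.14. Of 18 genes of cAMP synthesis and its kinase PKA, 1 was 2-fold higher and none 2-fold lower, with a median of -0.16. For both lists the shares over all protein-coding genes were 1.25% higher and 4.01% lower, and single genes in lists of this size are not read against them. That gene was Adcy10, the soluble adenylyl cyclase needed for sperm motility, at 2.32 RPKM in control and 8.76 in mutant (difference 1.56). Gnas, the stimulatory G protein gene, was at 220 and 125 RPKM, Prkar1a, a regulatory subunit of PKA, at 67.2 and 57.7 RPKM and the catalytic subunit gene Prkacb at 54.0 and 37.1 RPKM.

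Fgd5 encodes an exchange factor that loads the small GTPase CDC42 with GTP. It is known from endothelial cells and as a marker of blood stem cells. It is listed on chromosome 6 from 91978878 to 92076004 and was at 1.45 RPKM in control and 7.01 in mutant, a 4.84-fold ratio. No other FGD gene was past 2-fold. Fgd4 was at 27.7 and 37.9 RPKM, Fgd6 at 33.5 and 37.9 RPKM, Fgd1 at 16.7 and 19.0 RPKM, Fgd3 at 2.82 and 2.27 RPKM and Fgd2, the FGD gene with the lowest difference (-0.84), at 24.1 and 13.0 RPKM.

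Markers of the cell types that are known for Fgd5 did not differ in this way. The 11 endothelial genes measured summed to 37.4 RPKM in control and 37.4 in mutant, with differences from -0.39 to 0.41, none past 2-fold and none at 0. Esam was at 3.90 and 4.93 RPKM and Emcn at 2.66 and 2.63 RPKM. The 7 genes of blood stem and progenitor cells, a list that includes Kit, summed to 93.6 and 60.6 RPKM. Of the 6 that passed the filter, none lay above 0 and 1, Kit, was 2-fold lower. Kit was named above as a receptor of differentiating spermatogonia, so its value is not read as one of blood stem cells. The 13 genes of CDC42 and its effectors had a median of -0.28 with none past 2-fold, and Cdc42 itself was at 255 and 171 RPKM, Arhgdia at 163 and 129 RPKM and Cdc42se1 at 75.9 and 52.3 RPKM.

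Epb4.1l4a (current symbol Epb41l4a) encodes a band 4.1 protein with a FERM domain, a module that ties membrane proteins to the actin cytoskeleton. It is listed on chromosome 18 from 33796327 to 34007206 and has 1 annotated coding transcript, of 3566 nt and 24 exons. It was at 1.80 RPKM in control and 9.62 in mutant, a 5.33-fold ratio, and was the lowest of the 7 band 4.1 genes in both genotypes. Epb4.1l5 was at 35.6 and 58.0 RPKM, Epb4.1, the red cell band 4.1 gene, at 35.5 and 55.5 RPKM and Epb4.1l4b at 31.1 and 38.2 RPKM. Epb4.1l2 was at 44.4 and 36.9 RPKM, Epb4.1l3 at 17.9 and 17.4 RPKM and Epb4.1l1 at 11.8 and 10.6 RPKM. The largest difference among these 6 was 0.69, for Epb4.1l5.

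Ttn encodes titin, the giant elastic protein of the muscle sarcomere. It is listed on chromosome 2 from 76703980 to 76982547, and its longest annotated transcript has 106824 nt and 347 exons. It was at 7.25 RPKM in control and 32.0 in mutant, a 4.41-fold ratio, and had the highest RPKM of the 7 in both genotypes. The sarcomere list is broad and also holds muscle genes whose products lie outside the sarcomere, such as Casq2. Other genes of this list were mostly low: of 45 in the table besides Ttn, 14 passed the filter. Of these, 2 were 2-fold higher and 2 were 2-fold lower, where 1.25% and 4.01% of all protein-coding genes were, and their median was -0.01. The higher ones were Neb, which encodes the giant thin filament protein nebulin, at 5.74 and 12.6 RPKM (1.02), and Actn2, sarcomeric alpha-actinin, at 2.22 and 5.45 RPKM, just past 2-fold. The lower ones were Casq2, a calcium store protein of cardiac muscle, at 16.3 and 6.19 RPKM, and Myl2, a ventricular myosin light chain, at 2.62 and 0.730 RPKM.

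Markers of skeletal muscle other than Pax7 were close to absent. Myf5 was listed at 0 in both genotypes, Myod1 was at 0.0210 and 0.0109 RPKM, Myog at 0.211 and 0.272 RPKM and the muscle creatine kinase gene Ckm at 0.479 and 0.201 RPKM. The 5 markers measured summed to 3.11 RPKM in control and 1.22 in mutant, most of it from Pax7 at 2.39 and 0.735 RPKM. Pax7 alone of these markers passed the filter, so the sums mostly follow this gene and are not read as a level of muscle cells. Ttn made up 11.7% of the summed RPKM of the 46 genes of the sarcomere list in control and 38.4% in mutant. The sum of the other 45 was 54.8 and 51.2 RPKM.

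**Figure D3:**
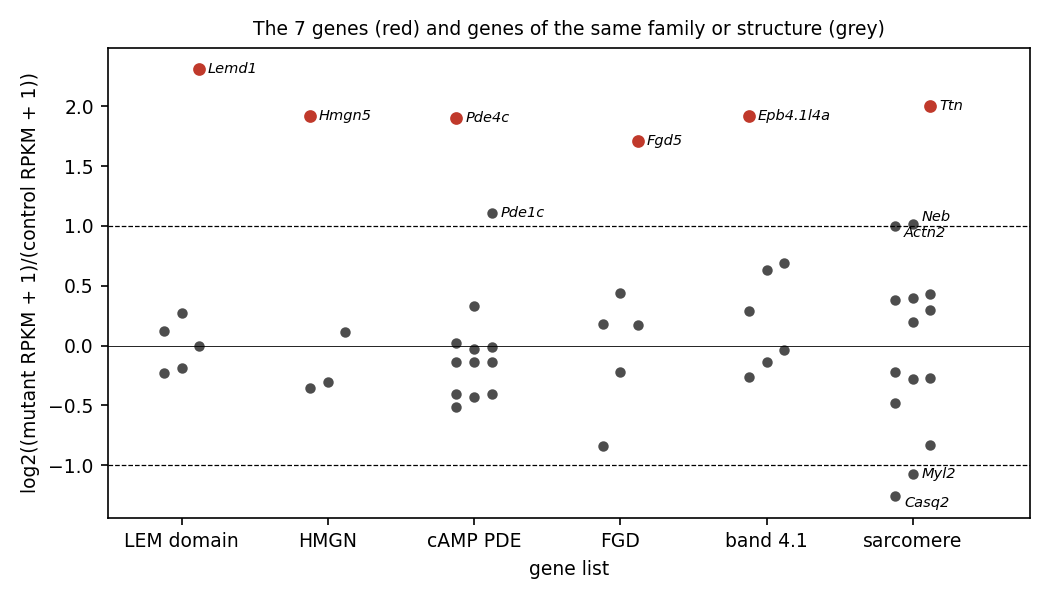
Difference between genotypes (log2 of RPKM + 1) for each gene of 1 RPKM or more in 6 lists, with the genes of the group in red, other genes in grey and dashed lines at 2-fold; horizontal offsets within a list only separate points. In each list the red gene lies above all others, and the grey genes past 2-fold are Pde1c, Neb and Actn2 above and Casq2 and Myl2 below.

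Pxt1 encodes a small testis-specific protein first described in peroxisomes. Its forced expression in male germ cells of mice is known to cause their apoptosis, and BAG6 binds it and holds this activity in check. It was at 2.73 RPKM in control and 12.2 in mutant, a 4.46-fold ratio and a difference of 1.82. The table lists it on chromosome 17 from 28925463 to 28942262. Bag6 was at 129 and 132 RPKM, and of its partners Get4 had 80.7 and 70.2 RPKM and Sgta had 37.0 and 36.0 RPKM. None of these 3 was past 2-fold, and their median was -0.04. The 18 peroxisome genes measured ranged from -0.72 to 0.59 with a median of -0.02, none past 2-fold. Pex19 was at 67.3 and 65.5 RPKM, catalase (Cat) at 57.1 and 37.7 RPKM and Pex13 at 43.4 and 53.5 RPKM.

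The genes of meiotic prophase and of haploid cells listed here did not share the size of these differences. Meig1 (difference 1.47) and Adcy10 (1.56), named above for sperm formation and sperm motility, were in neither list and were past 2-fold higher. Of 20 meiotic prophase genes, 15 lay above 0 and 5 below, none was past 2-fold and the median was 0.22. The most abundant were Stag3, a meiotic cohesin gene, at 98.1 and 141 RPKM, Tex15 at 69.2 and 120 RPKM, and Syce2, of the synaptonemal complex, at 76.6 and 56.3 RPKM. Of 8 genes of haploid cells that passed the filter, 6 lay above 0 and 2 below, with differences from -1.12 to 0.79. None was 2-fold higher and 1, Adam3, was 2-fold lower, at 2.34 and 0.542 RPKM. Their median was 0.37, with the centrosomal and sperm tail gene Odf2 at 35.1 and 43.1 RPKM. The medians of both lists lie below the 0.66 of the 13 germ cell markers.

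The surroundings of the 7 genes in the genome were examined, a property that did not enter their selection. They lie on 7 different chromosomes. Spans in the table are those of a cluster of overlapping genes: Mir135b, 1700037F24Rik and Gm10188 carry the same span as Lemd1. Mir135b was listed at 0 in both genotypes. The antisense gene Gm16191, which shares the span of Pxt1, was at 0.234 RPKM in control and 0.643 in mutant. Gm13938, opposite Ttn, was listed at 0 in control and was at 0.312 RPKM in mutant, and 4930466I24Rik, opposite Fgd5, was at 0.00886 and 0.247 RPKM. Gm23322, a small nuclear RNA gene inside Hmgn5, was at 3.57 and 21.3 RPKM. The sources used here do not say whether counting used strand, so reads of such overlapping genes may not be told apart.

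Of the 14 nearest coding neighbours, 1 on each side of each gene, 2 were at least 2-fold higher and none 2-fold lower, with a median of 0.23. The share of all protein-coding genes at least 2-fold higher was 1.25%. Ccdc141, a coiled-coil protein gene 27.4 kb from Ttn, was at 21.7 RPKM in control and 52.9 in mutant (1.25). Gm14870, beside Hmgn5, was listed at 0 in control and was at 4.95 RPKM in mutant; RefSeq has it as protein-coding and GENCODE M21 as a processed pseudogene.

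The other 12 neighbours lay between -0.49 and 0.65. They were Cdk18 at 3.19 and 2.04 RPKM and Klhdc8a at 1.58 and 1.06 RPKM beside Lemd1, Plekha3 at 14.7 and 17.7 RPKM beside Ttn, and Nrep at 24.9 and 17.4 RPKM and Apc at 56.0 and 80.6 RPKM beside Epb4.1l4a. The remaining neighbour of Hmgn5 was Rps6ka6 at 10.2 and 11.8 RPKM, 2370 kb away. Pde4c lies between Jund, at 43.7 and 31.0 RPKM, and Rab3a, at 13.9 and 18.9 RPKM. Pxt1 lies between 4930539E08Rik, at 1.07 and 1.30 RPKM, and Kctd20, at 48.3 and 59.7 RPKM. Fgd5 lies between Ccdc174, at 13.4 and 21.6 RPKM, and Nr2c2, at 15.9 and 12.9 RPKM.

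Within 500 kb of the 7 genes, a window chosen after the values had been seen, 88 protein-coding genes passed the filter. Of these 3 (3.41%) were at least 2-fold higher and 7 at least 2-fold lower, and their median was -0.07. Besides Gm14870, the higher ones were Ccdc141 and Osbpl6, which flank Ttn. Osbpl6, an oxysterol-binding protein gene 103 kb away, was at 2.50 and 9.70 RPKM (1.61), and it ranked at 16 among the coding genes by ratio. Over all protein-coding genes these shares were 1.25% higher and 4.01% lower. Of the 7 lower genes, 6 were among the 33 around Pde4c and 1 among the 14 around Lemd1, and no gene was 2-fold higher around Pde4c. No gene was past 2-fold within 500 kb of Epb4.1l4a, Pxt1 or Fgd5.

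**Figure D4:**
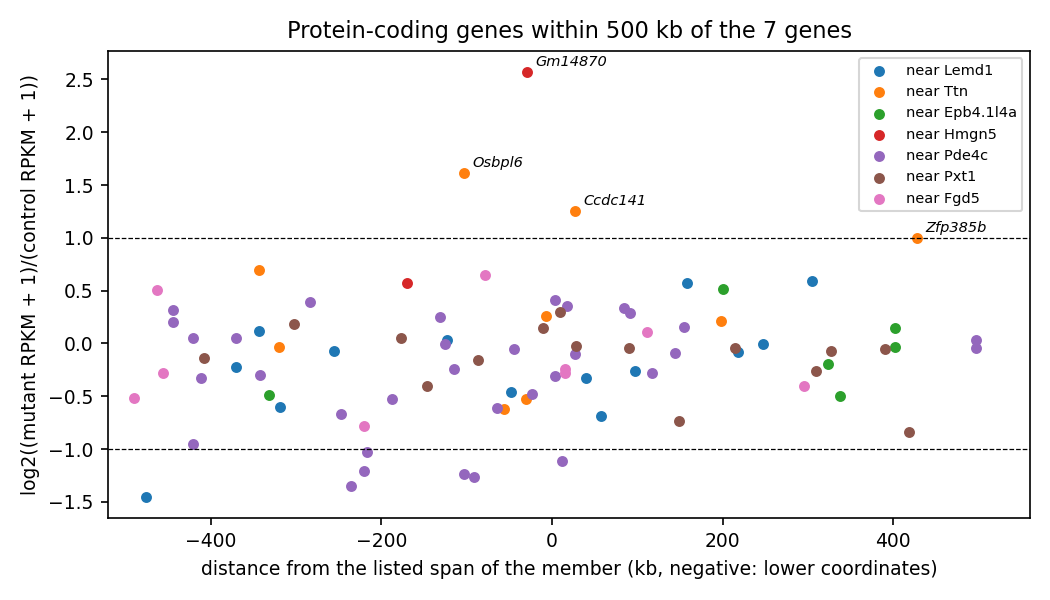
Difference between genotypes (log2 of RPKM + 1) of 88 protein-coding genes against their distance in kb from the listed span of the gene of the group they lie near, coloured by that gene, with dashed lines at 2-fold. Osbpl6 and Ccdc141 near Ttn and Gm14870 near Hmgn5 lie above the upper line, and Zfp385b near Ttn lies just under it.

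The reads behind each value were estimated from the low values of genes with 1 annotated transcript, which stepped in whole reads. Of 1516 control and 1499 mutant values of up to 10 reads, 84.2% and 90.5% lay within 0.1 of a whole number, and the steps place the depth near 56.5 M reads in control and near 57.3 M in mutant unless some other scaling was applied. On this footing Hmgn5 rested on about 243 control reads (95% exact Poisson interval 213 to 276) and 1207 mutant reads (1140 to 1277), and its ratio of 4.91 had a counting interval of 4.27 to 5.65. Epb4.1l4a rested on about 342 and 1851 reads (ratio interval 4.75 to 6.00).

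For genes with several transcripts the estimate depends on which was present, and the longest coding one was used first. It gave about 127 control and 575 mutant reads for Pxt1, 482 and 2366 for Fgd5 and 1129 and 4741 for Pde4c. The ratio intervals were 3.67 to 5.44, 4.39 to 5.35 and 3.88 to 4.42 in that order. For Pxt1 the listed span differs from that of GENCODE M21 (28933984 to 28943840). The transcript lengths used for Pxt1 may therefore not be those behind its RPKM. Lemd1 had about 170 control and 1463 mutant reads with its longest coding transcript and 33 and 280 with its shortest of 500 nt or more, which puts the lower bound of its ratio at 7.23 and at 5.90. Ttn had about 43687 and 195287 reads with its longest transcript and 6835 and 30555 with its shortest, and its interval of 4.36 to 4.45 became 4.29 to 4.52. These intervals cover counting error only and leave out differences between animals and libraries. They also make no allowance for the choice of these genes by their large ratios, so their bounds are no support for the ratios.

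The differences of the 7 genes lay between 1.14 and 2.98 under the 8 alternative settings tried. With both other filters and both smaller pseudocounts this follows from the selection: the filters leave the values of these genes unchanged, and a smaller pseudocount can only enlarge a positive difference. The other 4 settings reuse the values that chose the genes. The lowest value of each gene came after the mutant values were divided by 1.59, the median ratio of the 13 germ cell markers. Lemd1 was then at 1.71, Ttn at 1.35, Epb4.1l4a at 1.33, Hmgn5 at 1.31, Pde4c at 1.25, Pxt1 at 1.21 and Fgd5 at 1.14. That rescaling moved the median of all genes to -0.56 and left 20 protein-coding genes at least 2-fold higher, the 7 among them. Ccdc141 (0.59), Neb (0.41), Actn2 (0.46), Pde1c (0.55), Adcy10 (0.97) and Meig1 (0.94) were no longer past 2-fold, whereas Osbpl6 (1.02) was.

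**Figure D5:**
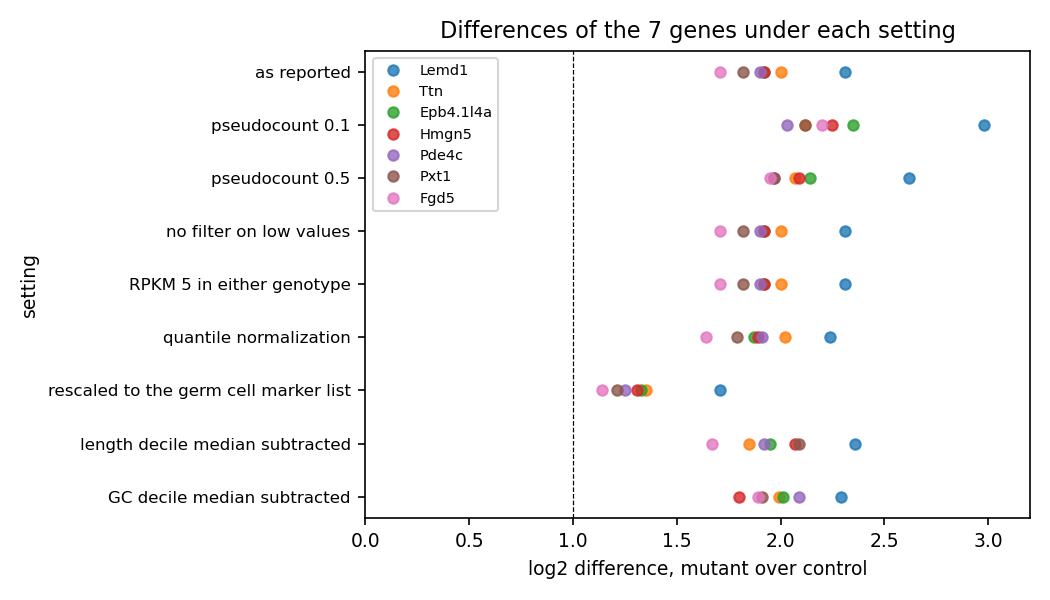
Difference between genotypes (log2) of each of the 7 genes, coloured by gene, as reported and under 8 alternative settings, with a dashed line at 2-fold. All points lie right of the line, and they lie closest to it after rescaling to the germ cell markers, between 1.14 and 1.71.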

How the data were processed

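The deposited values are RPKM, per the file headers, with 1 column for both control libraries and 1 for both mutant libraries. Per the submitters' processing notes, TopHat2 2.0.11 and the GRCm38 build were used. Not given in the sources used here are the counting program, the annotation and the way the libraries were combined. The labels' protocols describe bead selection with a CD90.2 antibody, Trizol extraction and Illumina libraries.

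With 1 value per genotype no linear model, replicate block or leave-one-out fit could be run. Entries with several symbols (774 of the 17278 with 1 RPKM or more in either genotype) were left out, and the entry with the highest mean was kept for a repeated symbol, which left 16473 genes. Biotypes, and current names of older symbols, came from RefSeq (GRCm38.p6), transcript lengths and GC content from GENCODE M21 on GRCm38, and promoters from RefSeq. Table starts count from 0, and 1 was added. The pseudocount was 1. Read steps were found by a grid search tested on simulated data, with 210 nt taken off each transcript length. Python 3.11.15, numpy 2.4.6, pandas 2.3.3 and scipy 1.17.1 were used.

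The 7 genes, the gene lists and the settings were chosen with earlier results of these data known. Genes named are the 7, their families, their nearest neighbours, list genes past 2-fold or of high mean RPKM, and the genes of nearest ratio or difference; marker genes given as examples, the overlapping entries, Osbpl6, Zfp385b and the genes just under 5 RPKM, Gfra1 and Zbtb16 were named after their values were seen.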

Additional observations from a re-analysis of the deposited data

How the results depend on the processing

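The 7 genes were at least 2-fold higher under quantile normalization, rescaling to the germ cell markers and, added after the data were seen, subtraction of the median of a gene's decile of transcript length or GC content. With a pseudocount of 0.1 or 0.5, no filter or a filter of 5 RPKM they could not have been otherwise, given how they were chosen. These 4 settings therefore say nothing about stability. The other 4 settings reuse the values that chose the genes, so they are no independent support for stability either. Of the other genes named, Actn2 (0.94) was under 2-fold after quantile normalization, Neb (0.87), Pde1c (0.96) and Myl2 (-0.79) with the length decile removed, and Myl2 (-0.98) with the GC decile removed. The number of genes at least 2-fold higher was 724, against 1417 with a pseudocount of 0.1 and 378 after rescaling. For protein-coding genes it was 156, against 394 with a pseudocount of 0.1, 244 with 0.5 and 20 after rescaling. Of the other genes in the family and pathway lists 4 were 2-fold higher, against 7 with a pseudocount of 0.1. The count was 2 with the length decile removed and 0 after rescaling, where 20 were 2-fold lower in place of 3. As reported, the shares over all protein-coding genes were 1.25% higher and 4.01% lower. Rescaling moved the median of all genes to -0.56. The share of all protein-coding genes 2-fold lower after it was not counted, so the 20 is not read as a result about these lists. The 2 higher nearest neighbours became 1 with a filter of 5 RPKM, after rescaling and with the length or GC decile removed. Gm14870 failed the 5 RPKM filter by its level and dropped out of the decile settings for lack of a coding transcript length. The only match to an E-box stayed in the 150 bases nearest the start. No paired analysis was possible because the columns combine both libraries of a genotype. Leaving out a replicate was not run for the same reason, and the spread between animals is unknown.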
